A study of Mus musculus with 15 samples.

Results

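The interaction of genotype with housing temperature was measured in mouse brown adipose tissue (BAT): for each gene, whether loss of DJ-1 changed the response of the tissue to warm housing. All 15 of the 15 bulk RNA sequencing libraries of the series entered, because the contrast needs every group. The animals were flox mice, labelled WT, and BAT-specific DJ-1 knockouts (BDJ1KO, here KO), and every animal was housed for 8 weeks either at room temperature or at 29 °C. The groups held 4 WT and 4 KO libraries at room temperature, and 4 WT and 3 KO libraries at 29 °C. The Cre driver, the age of the animals and whether each library came from a separate animal are not given in the sources used here; p-values therefore describe the spread between libraries, some of which may be technical.

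Room temperature is cool for a mouse. Sympathetic nerves release noradrenaline onto beta-adrenergic receptors of brown adipocytes, cyclic AMP rises, triglyceride is broken down, and the uncoupling protein UCP1 lets mitochondria release the energy as heat. At thermoneutrality this drive is low, and brown fat lowers its thermogenic program and stores lipid. DJ-1, encoded by Park7, senses oxidants and is known for protecting mitochondria from oxidative damage.

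The interaction was taken as the KO against WT difference at 29 °C minus that at room temperature, in log2 units, which by construction equals the housing effect (29 °C against room temperature) in KO minus that in WT. A positive value is called higher here and a negative value lower. Expression is given as CPM, estimated counts per 1000000 counts of the library after TMM scaling. Summed levels of marker lists are an exception: they are per 1000000 total counts, without TMM scaling. TMM factors were lower in every room temperature library than in every library at 29 °C. The sums are therefore on a different scale from the CPM of single genes. CPM is not divided by gene length and is compared between libraries only. Log2 values are given ± SE, and adjusted p-values come from edgeR's quasi-likelihood test with Benjamini-Hochberg adjustment over 15083 genes; genes with an adjusted p under 0.05 are referred to as called.

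Park7 (chromosome 4 at 150897133 to 150914437, mm10) checked the labels. Park7 measured 111, 108, 112 and 109 CPM in WT at room temperature and 128, 126, 116 and 104 CPM in WT at 29 °C. KO Park7 stood at 26.7, 34.1, 24.98 and 26.9 CPM at room temperature and 35.2, 25.4 and 34.5 CPM at 29 °C. Every KO library lay below every WT library at both temperatures, and the Park7 interaction was 0.07 ± 0.17 (adjusted p = 0.805), not called. All 13 brown adipocyte markers listed had counts in every group, with summed levels of 12502 to 14387 CPM in WT at room temperature and 3980 to 5141 CPM in WT at 29 °C. The summed KO levels were 8035 to 13944 CPM at room temperature and 11913 to 13978 CPM at 29 °C. Total estimated counts were 23977448 to 26789246 in 14 libraries and 38800967 in KO at 29 °C replicate 1. Skeletal muscle transcripts took 0.0823% to 0.276% of the counts in 3 libraries (WT at 29 °C replicate 2, KO at 29 °C replicates 2 and 3) and at most 0.00773% in the others. KO replicates 2 and 4 at room temperature had the lowest shares of mitochondrially encoded counts of the 15 libraries, 22.7% and 23.1%; that share was 30.2% to 41.6% in WT at 29 °C and at most 27.4% in every other group. Results were therefore also computed without those 3 and without those 2 libraries.

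The housing response differed between the genotypes for 4272 of 15083 genes tested (28.3%). The interaction was higher for 2416 (16.0%) and lower for 1856 (12.3%), the median over all genes was 0.01, and 3260 of the called genes passed the 1.5-fold limit that the submitters name. The balance of directions turned with the mitochondrially encoded genes left out of the fit, to 2098 higher and 2135 lower. The housing effect itself was called for 10375 genes in WT (68.8%) and for 6940 in KO (46.0%). KO differed from WT for 36 genes at room temperature (0.239%) and for 6747 at 29 °C (44.7%). Of the 4272 interaction genes, 4006 had a called KO effect at 29 °C and 27 had 1 at room temperature, while 254 had neither.

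The called genes were sorted by their housing effects into 3 patterns, as a description with no test of its own. Blunted genes responded in WT and responded less in KO: they were 3561 of the 4272 (83.4%), 2013 of them falls and 1548 rises in WT, and 1736 falls and 1767 rises with the mitochondrially encoded genes left out. In 2069 of the blunted genes the KO housing effect was not called, and in 1492 it was called in the same direction as in WT. Among those not called, the KO effect had the opposite sign to WT in 449 blunted falls and 371 blunted rises. Amplified genes had a called KO response that was larger in size than that of WT, in the same direction or not. There were 446 (10.4%), 248 rises and 198 falls, and 181 rises and 290 falls without KO at room temperature replicate 3. In 119 of the 248 rises and 105 of the 198 falls the WT effect had the opposite sign to KO and was not called. The WT effect was called in 52 of the 248 rises and 32 of the 198 falls. Crossed genes had called housing effects of opposite sign in the 2 genotypes: there were 216 (5.06%), of which 131 rose at 29 °C in KO and 85 fell, and 92 rose and 104 fell without KO at room temperature replicate 3. The other 49 (1.15%) were in no pattern. Nearest to the threshold were Pdcd10 (adjusted p = 0.0499968, interaction 0.52) on the inside and Smn1 (adjusted p = 0.0500987, interaction -0.52) on the outside.

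The size of the response differed between the patterns. Among blunted falls the median housing effect was -1.09 in WT and -0.28 in KO, and among blunted rises it was 1.21 and 0.25. Amplified rises had a median of 0.02 in WT and 1.09 in KO, and amplified falls 0.02 and -0.78, so the median amplified gene showed little response in WT. Crossed genes had medians of -0.67 in WT and 0.50 in KO for those rising in KO, and 0.52 and -0.46 for those falling in KO. Without the 3 libraries with muscle transcripts 2915 genes were called, 275 of them amplified and 116 crossed, and 2662 of the 2915 were among the 4272. Without KO replicates 2 and 4 at room temperature 3183 genes were called, 115 of them crossed, and 2991 were among the 4272; every shared gene kept its direction in both settings.

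**Figure D1:**
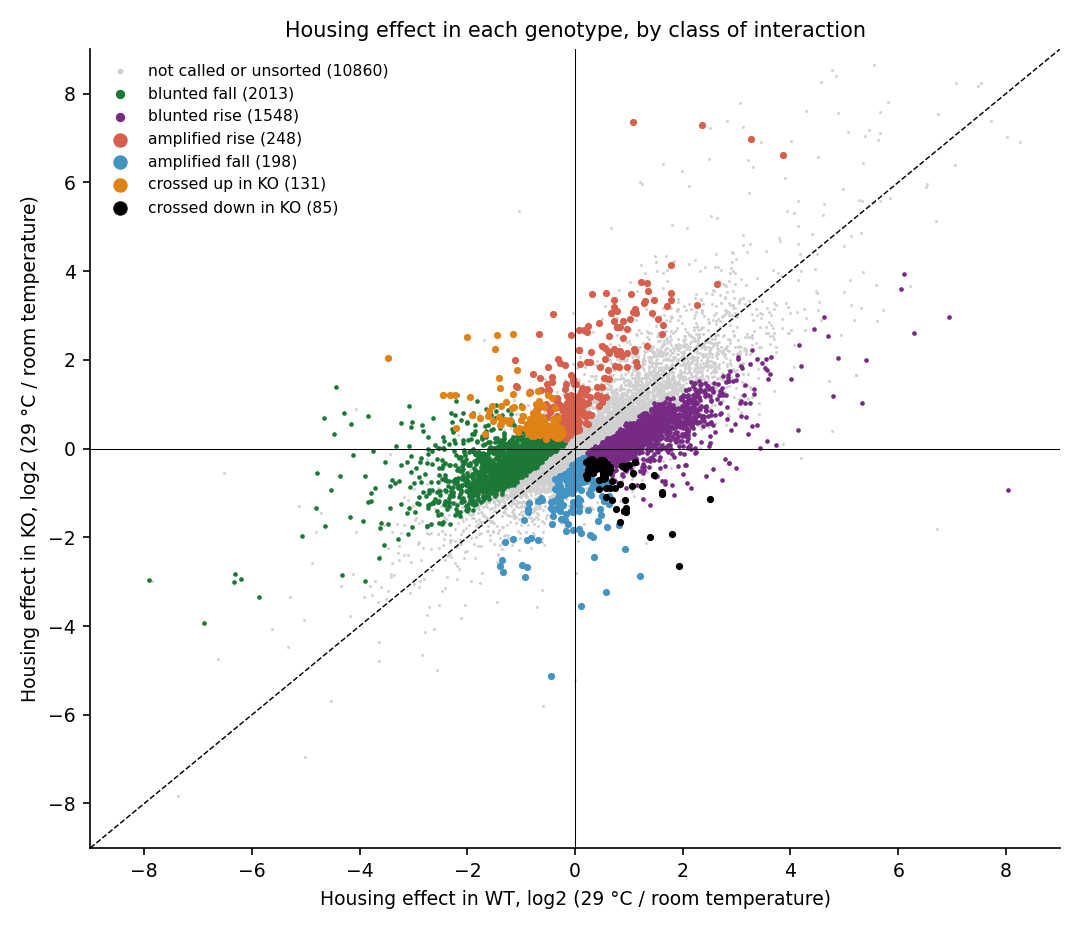
Each point is a gene, with its housing effect (29 °C against room temperature, log2) in WT on the x axis and in KO on the y axis; colours mark the patterns, the dashed line marks equal effects and 25 genes lie outside the axes. The 3561 blunted genes lie between the dashed line and the horizontal zero line or past the zero line, and the 216 crossed genes lie in the upper left and lower right.

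The extent of blunting was read from the genes that moved 2-fold or more with housing in WT. For the 1610 of them that were lower at 29 °C, KO kept a median of 44.1% of the WT change in log2 units (quartiles 25.6% and 63.3%), and 1072 (66.6%) were called blunted. For the 2170 that were higher at 29 °C, KO kept a median of 55.3% (quartiles 35.2% and 83.8%), and 869 (40.0%) were called blunted; 1270 had no called interaction. These genes were chosen by the WT effect, so the shares are a description with no test.

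Each library was also placed on a scale where 0 is the WT mean at room temperature and 100 the WT mean at 29 °C. Over the genes that fell in WT, the KO libraries at 29 °C had median positions of 44.0, 36.8 and 58.0, and over the genes that rose 51.4, 45.7 and 66.4. All 3 stood between the WT groups, with replicate 3 nearest to WT at 29 °C. The KO libraries at room temperature had medians of -3.71 to 5.52 and -10.9 to 7.43, around the WT libraries kept there.

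**Figure D2:**
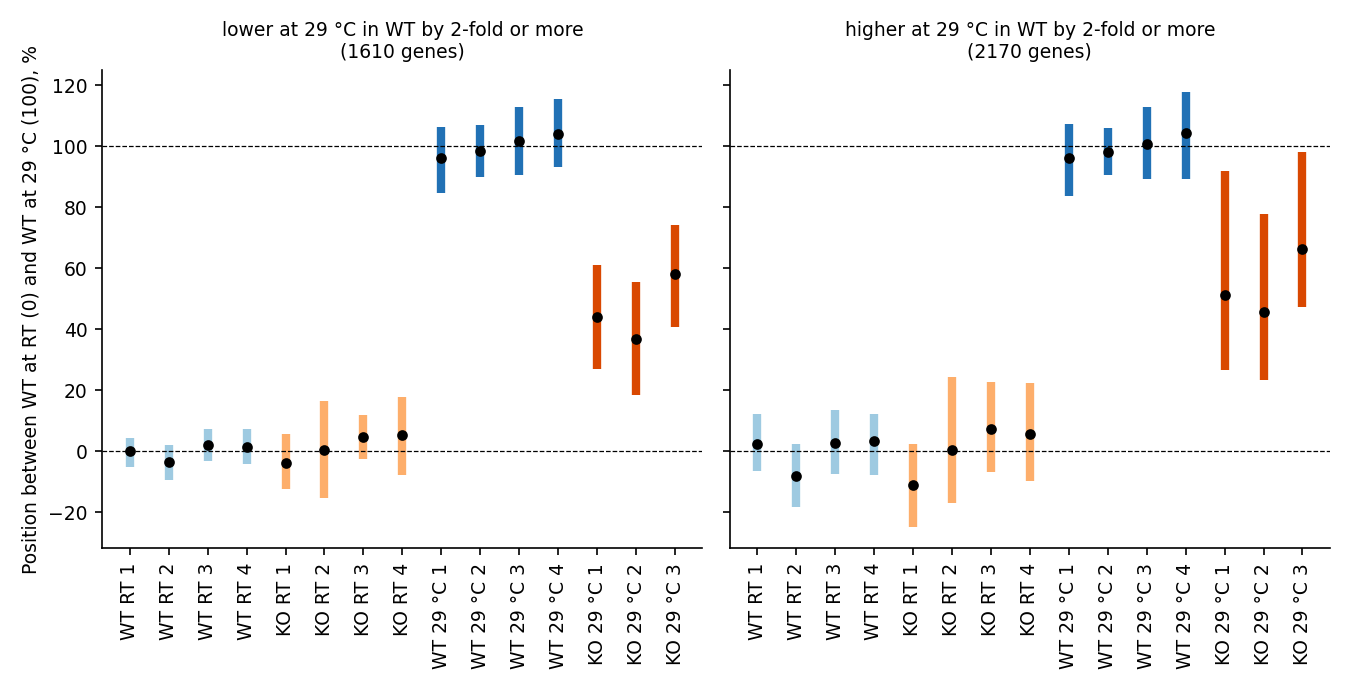
Position of each library (points, median over genes; bars, quartiles) on a percent scale where 0 is the WT mean at room temperature and 100 the WT mean at 29 °C, for 1610 genes lower and 2170 genes higher at 29 °C in WT. The 3 KO libraries at 29 °C lie between 36.8 and 66.4, and the KO libraries at room temperature lie near 0.

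Thermogenic genes were mostly blunted, 16 of 28 tested: their median fall with warm housing was smaller in KO than in WT. Of the 28, 19 had a higher interaction and none a lower, against 16.0% and 12.3% of all genes; DESeq2 called 19 higher and limma-voom 18, none lower in either, and 20 had an unadjusted p under 0.05. The median interaction was 1.28, and the median housing effect was -1.495 in WT and -0.35 in KO. Without the 3 libraries with muscle transcripts 9 were called higher, and the median was 1.09.

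Ucp1 (chromosome 8 at 83290352 to 83298452), the uncoupling protein of the mitochondrial inner membrane, measured 8008, 8717, 7689 and 9992 CPM in WT at room temperature and 839, 1086, 876 and 1277 CPM in WT at 29 °C. KO Ucp1 stood at 9644, 4953, 8629.8 and 4778 CPM at room temperature and 6933, 8596 and 6170.4 CPM at 29 °C. The WT libraries at 29 °C were the lowest, and the KO libraries at 29 °C overlapped those at room temperature. Ucp1 fell by 3.08 log2 units with warm housing in WT, had a housing effect of 0.05 in KO, and had an interaction of 3.12 ± 0.32 (adjusted p = 1.76e-05), 8.72-fold. KO replicates 2 and 4 at room temperature had the lowest Ucp1 of the 8 libraries kept there; without them the interaction was 2.74 (adjusted p = 5.93e-05).

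Dio2 (chromosome 12 at 90724552 to 90738438) encodes the deiodinase that makes active thyroid hormone inside brown adipocytes. Dio2 measured 232, 531, 357 and 434 CPM in WT at room temperature and 11.1, 35.5, 35.6 and 107 CPM in WT at 29 °C. KO Dio2 stood at 301, 159, 288 and 58.8 CPM at room temperature and 179, 347 and 321 CPM at 29 °C. The WT groups did not overlap, whereas KO at 29 °C lay above all WT libraries at that temperature and overlapped KO at room temperature. The Dio2 interaction was 3.53 ± 0.93 (adjusted p = 0.0154), but it was 2.69 (adjusted p = 0.164) without the libraries with muscle transcripts and 2.98 (adjusted p = 0.0549) without KO replicates 2 and 4 at room temperature. Its promoter is shown because it holds the cyclic AMP response element, the site at which cyclic AMP signalling can act on transcription: the 250 bases before the start (chr12:90739039-90739288, minus strand, GRCm38.p6, RefSeq, whose start lies upstream of the annotated gene above), with the letters TGACGTCA in capitals at -95 from the start.

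Dio2: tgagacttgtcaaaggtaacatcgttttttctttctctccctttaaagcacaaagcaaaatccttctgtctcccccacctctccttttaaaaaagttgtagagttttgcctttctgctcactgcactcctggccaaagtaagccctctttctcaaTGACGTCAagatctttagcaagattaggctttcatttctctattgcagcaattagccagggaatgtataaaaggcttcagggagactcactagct

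These letters were in 1 of 21 thermogenic promoters in the RefSeq table and in 2.90% of 11213 promoters of genes tested; both strands were searched, and a match is a description of sequence only.

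Plin5, which ties lipid droplets to mitochondria, was crossed. Plin5 measured 191, 203, 183 and 183 CPM in WT at room temperature and 86.4, 84.1, 80.6 and 78.1 CPM in WT at 29 °C. KO Plin5 stood at 199, 144, 184 and 149 CPM at room temperature and 249.8, 337 and 210.2 CPM at 29 °C. The 4 WT libraries at 29 °C lay below all others and the 3 KO libraries at 29 °C above all others. Plin5 fell by 1.21 log2 units in WT and rose by 0.65 in KO, an interaction of 1.86 ± 0.19 (adjusted p = 1.45e-05). Otop1, a proton channel enriched in brown fat, was partly blunted, with -2.89 in WT against -1.25 in KO, an interaction of 1.65 ± 0.18 (adjusted p = 2.23e-05). Ppargc1a, a coactivator of mitochondrial genes, had an interaction of 2.61 ± 0.58 (adjusted p = 0.00560) and of 2.07 (adjusted p = 0.0599) without the libraries with muscle transcripts. Ebf2, a factor of brown adipocyte identity, had 1.29 ± 0.18 (adjusted p = 9.28e-05).

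Cidea and Elovl3, other genes of the brown adipocyte, had no called interaction. Cidea, a lipid droplet protein and brown fat marker, measured 2227, 2123, 2289 and 2170.0 CPM in WT at room temperature and 2144, 1799, 1086 and 1240.1 CPM in WT at 29 °C. KO Cidea stood at 2684, 2454, 2137 and 1808 CPM at room temperature and 1851, 1699 and 1607 CPM at 29 °C. WT at 29 °C overlapped every other group, and the Cidea interaction was 0.09 ± 0.26 (adjusted p = 0.828), 95% confidence interval -0.45 to 0.63. Elovl3, which lengthens fatty acids in cold-exposed brown fat, fell in both genotypes, by 5.29 in WT and 3.34 in KO, with an interaction of 1.95 ± 0.90 (adjusted p = 0.132), 95% confidence interval -0.02 to 3.92. The 3 KO libraries at 29 °C all lay above WT there for Elovl3, so the missed call does not show an equal fall.

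**Figure D3:**
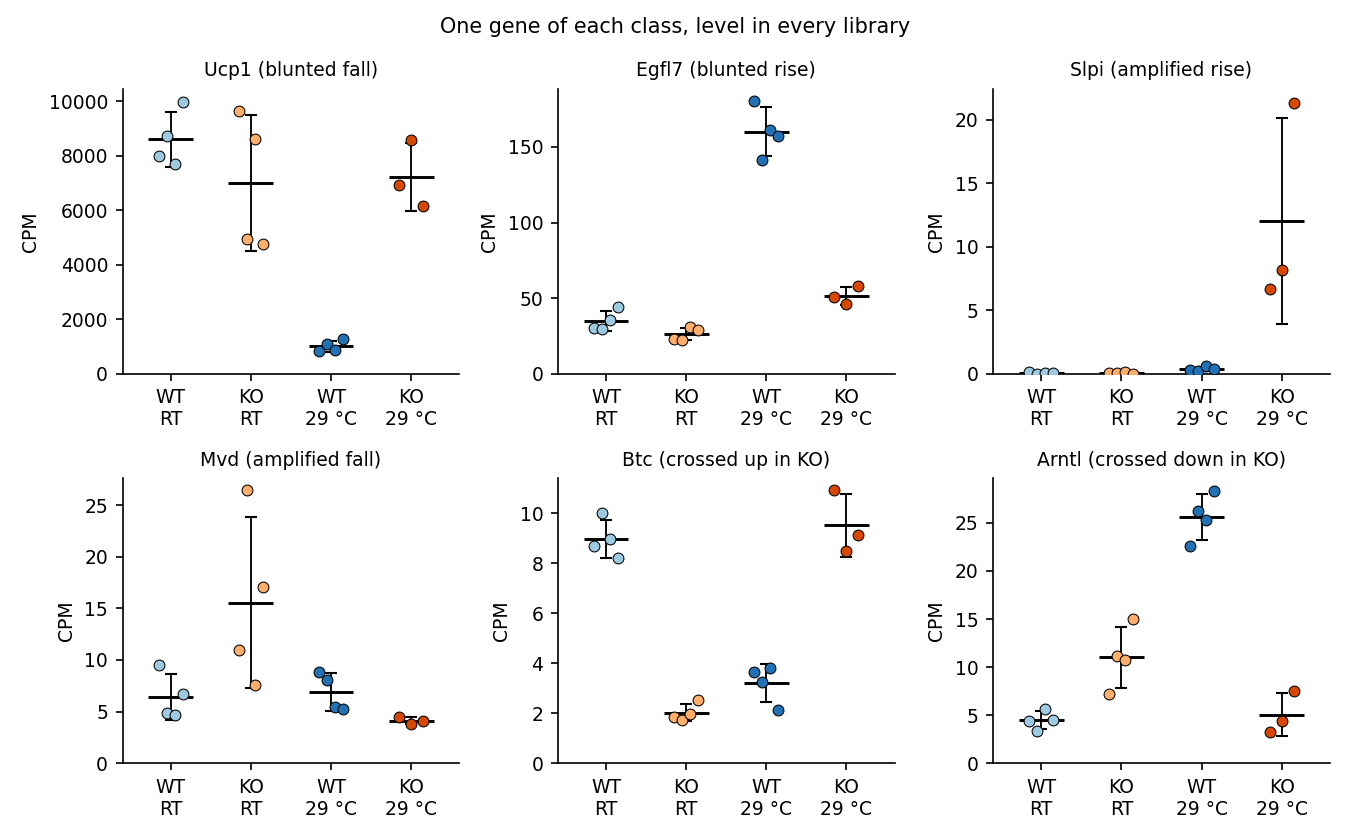
CPM of Ucp1, Egfl7, Slpi, Mvd, Btc and Arntl in each library (points), with the mean and SD (bars) of each group; each panel has its own y axis. Ucp1 and Egfl7 show blunted responses, and Slpi a rise larger in KO. Mvd shows a fall in KO with little change in WT, and Btc and Arntl move in opposite directions in WT and KO.

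Most genes of fuel oxidation were blunted. Of 22 fatty acid oxidation genes 19 (86.4%) were called, all higher (median interaction 0.96). Of 21 genes of the TCA cycle 18 (85.7%) were called, all higher (median 0.77). Over all genes 16.0% were called higher and 12.3% lower. Without the libraries with muscle transcripts the counts were 16 and 17. Hadha, the alpha subunit of the mitochondrial trifunctional protein, measured 2103, 2363, 2118 and 2122 CPM in WT at room temperature and 463, 452, 462 and 428 CPM in WT at 29 °C. KO Hadha stood at 2313, 2129, 2049 and 2012 CPM at room temperature and 1048, 1267 and 893 CPM at 29 °C. The 3 KO libraries at 29 °C stood apart from the other groups, above WT at 29 °C and below every library at room temperature. The Hadha interaction was 1.28 ± 0.15 (adjusted p = 3.15e-05), with housing effects of -2.27 in WT and -0.99 in KO. Slc25a20, the carnitine carrier, had 1.38 ± 0.16 (adjusted p = 3.44e-05), and Acot2, a mitochondrial thioesterase whose reads can be shared with its close copy Acot1, had 1.95 ± 0.21 (adjusted p = 1.83e-05). In the TCA cycle Idh3a, a subunit of isocitrate dehydrogenase, had 1.36 ± 0.17 (adjusted p = 4.86e-05).

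Genes of the respiratory chain were called in both directions. Of 41 nuclear subunits 13 were called higher and 3 lower (31.7% and 7.32%, against 16.0% and 12.3% of all genes; median 0.19), with 9 higher and 5 lower without KO at 29 °C replicate 1 and 1 lower without the libraries with muscle transcripts; Uqcrc2 of complex III had 1.17 ± 0.14 (adjusted p = 4.77e-05) and Ndufs1 of complex I 0.997 ± 0.14 (adjusted p = 1.32e-04). Of the 13 mitochondrially encoded genes 1 (7.69%) was called, ATP8, and it was lower, at -1.69 ± 0.31 (adjusted p = 0.00120). DESeq2 called 3 lower. Without WT at 29 °C replicate 4 edgeR called 3 of the 13 higher and 1 lower, and without WT at 29 °C replicate 2 or 3 or KO at 29 °C replicate 1 it called 2 lower. ATP8 measured 938, 995, 1109.6 and 1153 CPM in WT at room temperature and 1012, 641, 608 and 1457 CPM in WT at 29 °C. KO ATP8 stood at 965, 1014, 1025 and 937 CPM at room temperature and 276, 242 and 293 CPM at 29 °C. The KO libraries at 29 °C were below all others; ATP8 overlaps ATP6 on the mitochondrial genome, so its reads are uncertain. The median interaction of the 13 was -0.27, and 4 of them had an unadjusted p under 0.05. The share of mitochondrially encoded counts was itself highest in WT at 29 °C; with those genes left out of the fit 4233 of the other genes were called.

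Of 21 triglyceride and droplet genes 12 were called higher and 1 lower (57.1% and 4.76%, against 16.0% and 12.3% of all genes). Their median was 0.93, with 8 higher without the libraries with muscle transcripts. Of 17 lipolysis and beta-adrenergic genes 10 (58.8%) were called, all higher, and 1 was also called lower without KO at room temperature replicate 2. Plin1, the perilipin that coats the droplet and gates lipolysis, measured 645, 699.6, 668 and 653 CPM in WT at room temperature and 179.9, 188, 136 and 132 CPM in WT at 29 °C. KO Plin1 stood at 711, 686, 634 and 603 CPM at room temperature and 599.8, 728 and 544 CPM at 29 °C. KO at 29 °C overlapped both groups at room temperature, and the WT libraries at 29 °C were far below. The Plin1 interaction was 1.99 ± 0.18 (adjusted p = 5.93e-06). Lipe, the hormone-sensitive lipase, had 1.45 ± 0.17 (adjusted p = 3.91e-05), Pde4d, which degrades cyclic AMP, had 2.22 ± 0.24 (adjusted p = 1.97e-05), and Prkar2b, a regulatory subunit of protein kinase A, had 1.51 ± 0.16 (adjusted p = 1.97e-05). Of 17 glycolysis genes 10 (58.8%) were called, all higher (median 0.63), among them Pgk1 at 0.83 ± 0.13 (adjusted p = 2.15e-04).

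Of 17 genes of de novo lipogenesis 14 were called lower at 29 °C in WT and 14 in KO, against 4954 and 3276 of all 15083 genes. The 17 had median housing effects of -2.13 and -2.14, and their median interaction of -0.11 changed sign across settings (-0.28 to 0.16). In the interaction 1 of the 17 was called higher and 2 lower by edgeR (5.88% and 11.8%, below the 16.0% and 12.3% of all genes). DESeq2 called 1 higher and 4 lower. The lower count was 4, with none higher, without KO at room temperature replicate 3, 3 without WT at room temperature replicate 4, WT at 29 °C replicate 3 or 4 or KO at 29 °C replicate 2, and 1 without the libraries with muscle transcripts or without KO replicates 2 and 4 at room temperature. Fasn, the fatty acid synthase, measured 22142, 21389, 17703 and 23843 CPM in WT at room temperature and 2169, 1892, 337 and 321 CPM in WT at 29 °C. KO Fasn stood at 23044, 34667, 20516 and 29428 CPM at room temperature and 2324, 2019 and 1573 CPM at 29 °C. Both 29 °C groups lay below both room temperature groups, and the Fasn interaction was 0.40 ± 0.77 (adjusted p = 0.738), 95% confidence interval -1.27 to 2.08, so the genotypes are not shown to respond alike. Elovl5 fell further in KO (-2.04) than in WT (-1.15), an interaction of -0.89 ± 0.17 (adjusted p = 0.00142).

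The 4 largest blunted falls were in Mfsd2a, Ppp1r3g, Dbp and Irs2. Irs2 (chromosome 8 at 10984681 to 11008458), an adaptor of the insulin receptor, measured 77.2, 105, 69.5 and 64.6 CPM in WT at room temperature and 2.29, 3.29, 9.68 and 2.34 CPM in WT at 29 °C. KO Irs2 stood at 36.7, 17.2, 10.1 and 3.70 CPM at room temperature and 22.3, 36.5 and 15.3 CPM at 29 °C. WT at room temperature stood above all other libraries and WT at 29 °C below nearly all, while the KO groups overlapped. The Irs2 interaction was 4.71 ± 0.93 (adjusted p = 0.00330), 26.1-fold, and that of Irs1, its relative, was 1.70 ± 0.33 (adjusted p = 0.00190). Ppp1r3g, which brings protein phosphatase 1 to glycogen, measured 2.36, 4.08, 2.31 and 2.73 CPM in WT at room temperature and 0, 0.133, 0.242 and 0.202 CPM in WT at 29 °C. KO Ppp1r3g stood at 0.474, 0.211, 0.564 and 0.122 CPM at room temperature and 0.761, 0.451 and 0.555 CPM at 29 °C. Only WT at room temperature was above 1 CPM, and the Ppp1r3g interaction was 5.08 ± 0.74 (adjusted p = 1.56e-04).

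The largest estimate rested on few libraries. Mfsd2a, a transporter of lysophospholipids, measured 5.21, 36.0, 5.50 and 10.4 CPM in WT at room temperature and 0.173, 0.399, 0.726 and 1.37 CPM in WT at 29 °C. KO Mfsd2a stood at 5.82, 0.759, 0.725 and 0.122 CPM at room temperature and 1.55, 1.62 and 11.3 CPM at 29 °C. WT at room temperature replicate 2 and KO at 29 °C replicate 3 stood far above the rest of their groups. The Mfsd2a interaction was 5.82 ± 1.63 (adjusted p = 0.0200), with a 95% confidence interval of 2.26 to 9.39. It was 4.22 (adjusted p = 0.0668) without KO at 29 °C replicate 3 and 3.95 (adjusted p = 0.203) without the libraries with muscle transcripts. It was 5.01 (adjusted p = 0.0725) without KO replicates 2 and 4 at room temperature. With the replicate number as a block it was 5.57 (adjusted p = 0.0750). Among blunted rises beside the heat-shock genes, Aldoc, a glycolytic aldolase, had -3.05 ± 0.55 (adjusted p = 7.98e-04) and Nnat, listed as a white adipocyte marker, -2.84 ± 0.59 (adjusted p = 0.00399); Nnat had -2.90 (adjusted p = 0.0554) without the libraries with muscle transcripts.

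Genes of lysosomes and autophagy lay on the same side as the thermogenic genes. Of 33 lysosome genes 18 were called, all higher (median 0.53), and of 30 macroautophagy and mitophagy genes 15 were called higher and 1 lower (median 0.44). Over all genes 16.0% were called higher and 12.3% lower. Without the libraries with muscle transcripts 13 lysosome genes were called higher and 1 lower (median 0.46). In that setting 10 macroautophagy and mitophagy genes were called higher and 1 lower (median 0.29). Npc1, which exports cholesterol from lysosomes, measured 65.6, 68.6, 61.9 and 64.5 CPM in WT at room temperature and 25.6, 21.5, 16.3 and 18.4 CPM in WT at 29 °C. KO Npc1 stood at 53.4, 45.4, 53.3 and 52.7 CPM at room temperature and 67.0, 70.2 and 56.1 CPM at 29 °C. WT at 29 °C was the lowest group, KO at 29 °C overlapped WT at room temperature, and KO at room temperature lay below WT there. The Npc1 interaction was 2.002 ± 0.17 (adjusted p = 4.41e-06), crossed, with -1.67 in WT and 0.33 in KO. Gabarapl1, an ATG8-family protein of autophagosomes, was crossed at 1.22 ± 0.15 (adjusted p = 5.04e-05), and Lamp1, a lysosomal membrane protein, was blunted at 0.82 ± 0.12 (adjusted p = 2.13e-04).

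Chaperone-mediated autophagy, in which HSC70 carries proteins to LAMP2A on the lysosome, had 5 of 23 genes called higher and 2 lower (21.7% and 8.70%, near the 16.0% and 12.3% of all genes; median 0.08), and 3 higher without KO at room temperature replicate 3, without KO at 29 °C replicate 2, or without the libraries with muscle transcripts. Lamp2, the gene of the receptor, measured 166, 177, 180.2 and 155 CPM in WT at room temperature and 76.4, 88.8, 99.2 and 106 CPM in WT at 29 °C. KO Lamp2 stood at 175, 158, 179.8 and 134 CPM at room temperature and 151, 160.5 and 149 CPM at 29 °C. WT at 29 °C was the lowest group for Lamp2, below every other library. Hspa8, the gene of HSC70, measured 882, 1052, 691 and 799 CPM in WT at room temperature and 1509, 1943, 1730.1 and 2429.8 CPM in WT at 29 °C. KO Hspa8 then stood at 1014, 1164, 1221 and 862 CPM at room temperature and 896, 922 and 1389.8 CPM at 29 °C. WT at 29 °C was the highest group for Hspa8, with no overlap with the other groups, so the 2 genes were blunted in opposite directions. The Lamp2 interaction was 0.80 ± 0.16 (adjusted p = 0.00173), over all its isoforms together, and the Hspa8 interaction was -1.15 ± 0.26 (adjusted p = 0.00450). Snx10, a sorting nexin of the endosome, had 1.78 ± 0.23 (adjusted p = 8.32e-05).

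Antioxidant and NRF2 target genes had 12 of 28 called (42.9%), all higher (median 0.37), against 16.0% of all genes called higher. DESeq2 called 13 higher and 1 lower. The counts were 7 higher and 1 lower without KO at 29 °C replicate 1, 9 and 3 without KO at room temperature replicate 3, 10 and 2 without WT at 29 °C replicate 4, and 12 and 1 without KO at 29 °C replicate 2. Cat, the catalase, had 1.11 ± 0.12 (adjusted p = 2.00e-05), and the mitochondrial Sod2 and Prdx3 had 0.99 ± 0.13 (adjusted p = 7.86e-05) and 1.04 ± 0.14 (adjusted p = 7.23e-05). Of 23 genes of the integrated stress response 8 were called higher and 1 lower (34.8% and 4.35%, against 16.0% and 12.3% of all genes). Their median was 0.46, with 5 higher without WT at room temperature replicate 4. Asns, the asparagine synthetase and an ATF4 target, measured 53.7, 57.2, 54.4 and 54.8 CPM in WT at room temperature and 32.2, 30.6, 26.5 and 26.96 CPM in WT at 29 °C. KO Asns stood at 55.5, 72.5, 62.5 and 64.2 CPM at room temperature and 88.4, 69.8 and 56.9 CPM at 29 °C. Asns was lowest in WT at 29 °C, with no overlap with another group, and its interaction was 1.09 ± 0.17 (adjusted p = 3.03e-04). Sesn2, a stress-induced inhibitor of mTORC1 signalling, was crossed at 1.56 ± 0.27 (adjusted p = 5.41e-04). Of 21 genes of the unfolded protein response 6 were called higher and 1 lower (28.6% and 4.76%). The higher count was 3 without the libraries with muscle transcripts. Hyou1 had 0.71 ± 0.14 (adjusted p = 0.00176).

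Among machinery for making and degrading protein, 15 of 30 mitochondrial ribosome genes were called, all higher (median 0.39), Mrpl4 at 0.96 ± 0.12 (adjusted p = 6.49e-05). Of 32 proteasome genes 9 (28.1%) were called, all higher (median 0.25), and 5 higher and 1 lower without KO at 29 °C replicate 1. Psmd11 had 0.79 ± 0.13 (adjusted p = 4.42e-04) and Nfe2l1, the factor that raises proteasome genes, 0.64 ± 0.15 (adjusted p = 0.00488). Of 37 cytosolic ribosome genes 1 was called higher and 5 lower (2.70% and 13.5%, against 16.0% and 12.3% of all genes; median -0.11), and none lower without the libraries with muscle transcripts. The lower count was 1 without WT at room temperature replicate 1 or 2, WT at 29 °C replicate 3 or KO at 29 °C replicate 2 or 3, 2 without KO at room temperature replicate 1 or 4, and 9 without KO at 29 °C replicate 1.

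**Figure D4:**
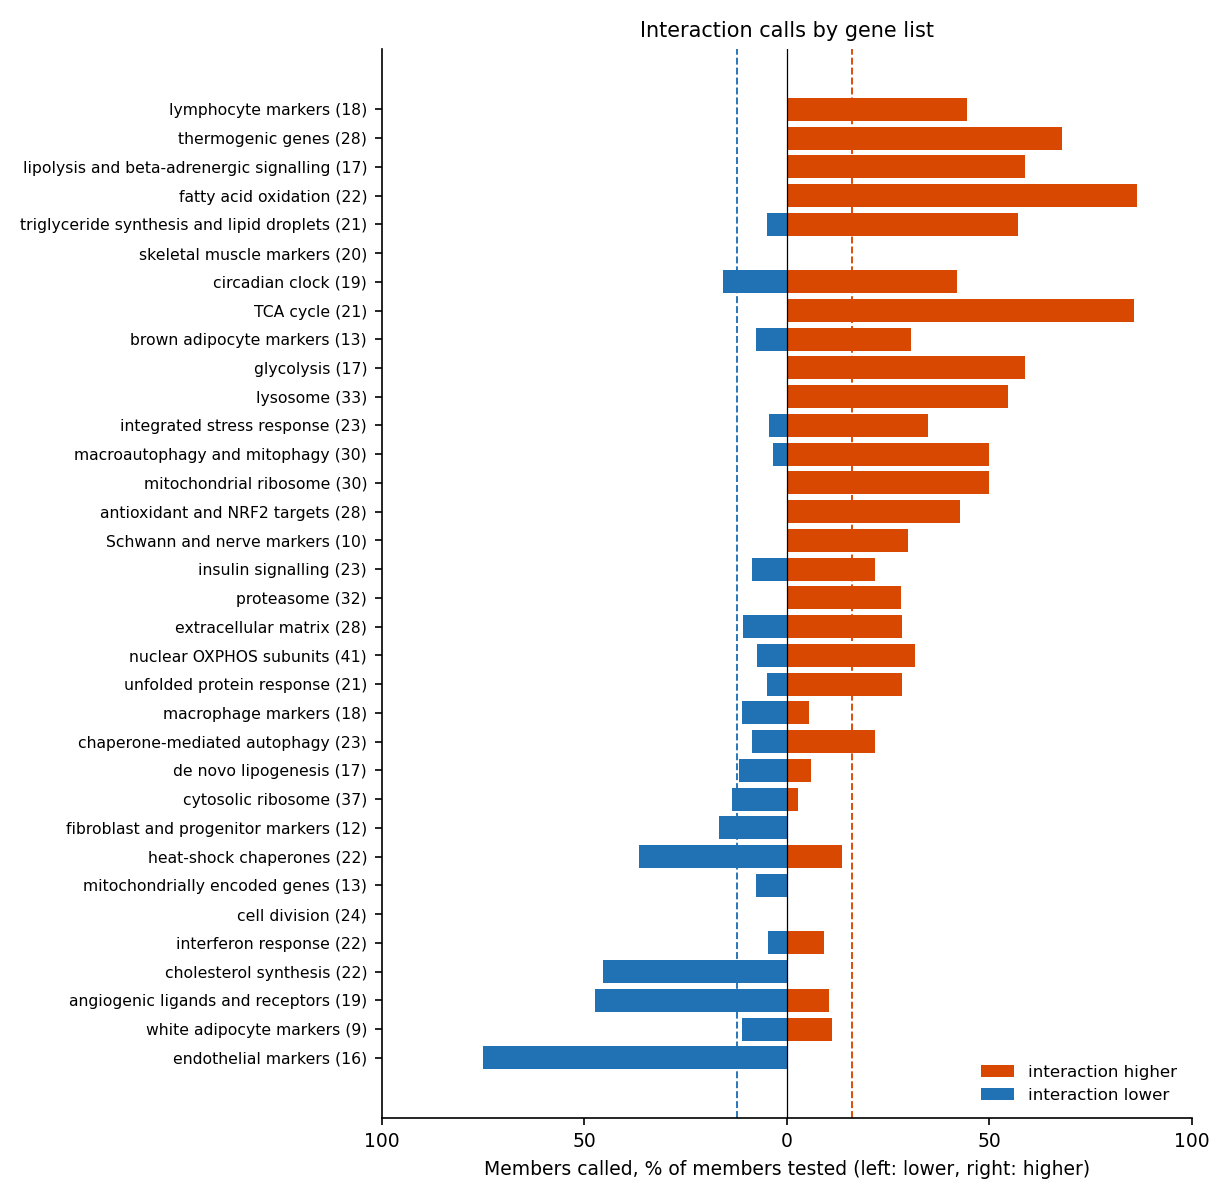
Percent of the tested members of each gene list that were called higher (right) or lower (left) in the interaction, ordered by the median interaction; lists with fewer than 9 tested members are left out. Dashed lines mark the 16.0% and 12.3% of all genes; fatty acid oxidation, the TCA cycle and thermogenic genes lie far past the right line and endothelial markers far past the left.

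Npas2 and Arntl, genes of the circadian clock, were among the 4 largest falls of the crossed genes. The clock is a feedback loop in which BMAL1 (Arntl) with CLOCK or NPAS2 drives genes that hold E-boxes, including the repressors of Arntl, Nr1d1 and Nr1d2, and the D-box factors Dbp, Tef and Hlf. Of 19 clock genes 8 were called higher and 3 lower (42.1% and 15.8%, against 16.0% and 12.3% of all genes, median 0.80). The activators Arntl and Npas2 were lower, and their targets Dbp, Nr1d1 and Nr1d2 were higher. Arntl (chromosome 7 at 113207465 to 113314126) measured 4.38, 3.39, 5.67 and 4.50 CPM in WT at room temperature and 22.6, 26.2, 25.3 and 28.4 CPM in WT at 29 °C. KO Arntl stood at 7.24, 11.1, 10.8 and 14.95 CPM at room temperature and 3.21, 4.40 and 7.52 CPM at 29 °C. Arntl was highest in WT at 29 °C, next in KO at room temperature, and lowest in WT at room temperature and KO at 29 °C, which overlapped; KO at 29 °C replicate 3 also reached the range of KO at room temperature. It rose by 2.51 in WT and fell by 1.14 in KO, an interaction of -3.65 ± 0.37 (adjusted p = 1.97e-05).

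Npas2, the partner of BMAL1, measured 1.41, 1.29, 1.13 and 1.34 CPM in WT at room temperature and 5.17, 4.05, 5.88 and 4.72 CPM in WT at 29 °C. KO Npas2 stood at 1.72, 1.31, 1.89 and 2.40 CPM at room temperature and 0.119, 0.376 and 0.416 CPM at 29 °C. KO at 29 °C was the lowest group and WT at 29 °C the highest, and the Npas2 interaction was -4.58 ± 0.42 (adjusted p = 7.39e-06). Dbp measured 59.4, 47.8, 37.5 and 66.2 CPM in WT at room temperature and 3.68, 1.99, 1.73 and 1.98 CPM in WT at 29 °C. KO Dbp stood at 34.3, 24.7, 24.1 and 20.4 CPM at room temperature and 52.2, 29.5 and 14.8 CPM at 29 °C. Dbp ran the other way, lowest in WT at 29 °C with no overlap, and its interaction was 4.80 ± 0.52 (adjusted p = 6.23e-05), 27.95-fold. Nr1d2 had 2.03 ± 0.19 (adjusted p = 7.39e-06) and Nr1d1 1.74 ± 0.47 (adjusted p = 0.0147), though Nr1d1 had 1.31 (adjusted p = 0.0775) without the libraries with muscle transcripts. Tef and Hlf, chosen after their values were seen, had 1.55 ± 0.19 (adjusted p = 5.61e-05) and 2.45 ± 0.27 (adjusted p = 3.33e-05). The sources used here do not give the hour at which tissue was taken, and its part in the result was not tested.

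Per3, a period gene chosen after its values were seen, had group means of 55.6, 30.5, 15.1 and 38.1 CPM in the order WT then KO at room temperature, then WT and KO at 29 °C, with an interaction of 2.20 ± 0.31 (adjusted p = 1.75e-04). Its promoter (chr4:151044666-151044915, minus strand, GRCm38.p6, RefSeq) is shown because the D-box letters TTATGNAA, the site of DBP, TEF and HLF, occur in it at -205 and -158, in capitals.

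Per3: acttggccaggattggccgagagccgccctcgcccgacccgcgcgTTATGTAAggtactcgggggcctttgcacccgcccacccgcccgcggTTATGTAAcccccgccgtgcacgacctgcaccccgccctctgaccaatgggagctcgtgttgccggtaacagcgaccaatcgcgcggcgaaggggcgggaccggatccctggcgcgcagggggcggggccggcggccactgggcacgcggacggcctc

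The D-box was in 2 of 16 clock promoters (12.5%) and in 2.35% of promoters of genes tested. The E-box CACGTG was in 5 of 16 clock promoters (31.2%), in 11 of 65 promoters of genes crossed downward in KO (16.9%), in 6 of 100 of genes crossed upward and in 9.62% of promoters of genes tested.

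Heat-shock chaperones moved both ways. Of 22 genes 8 were called lower and 3 higher (36.4% and 13.6%, against 12.3% and 16.0% of all genes, median -0.17). The 8 lower genes, Hspa1a, Hspa8 and Hspb1 among them, rose with warm housing in WT and less in KO. Of the 3 higher, Hspe1 and Hspd1, which form the mitochondrial chaperonin, fell in WT and not by the test in KO, and Dnajb4, a cytosolic HSP40 chosen after its values were seen, was crossed. Hspa1a, an inducible HSP70, measured 3.72, 3.05, 1.39 and 1.73 CPM in WT at room temperature and 126, 421, 241 and 429 CPM in WT at 29 °C. KO Hspa1a stood at 1.77, 5.27, 3.26 and 1.14 CPM at room temperature and 8.82, 5.18 and 52.8 CPM at 29 °C. WT at 29 °C lay above every other library, and KO at 29 °C was also above both room temperature groups except for an overlap with KO replicate 2 there. The Hspa1a interaction was -3.98 ± 1.16 (adjusted p = 0.0240), with housing effects of 6.94 in WT and 2.96 in KO.

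The near-identical Hspa1b had -3.69 ± 1.18 (adjusted p = 0.0363), and reads of the pair may be split arbitrarily. With the replicate number as a block Hspa1b had -3.56 (adjusted p = 0.0937) and was not called. Leaving out single libraries took the adjusted p of Hspa1a to at most 0.0590 (it was lost without KO at room temperature replicate 2 or KO at 29 °C replicate 1), and it was -3.80 (adjusted p = 0.0749) without KO replicates 2 and 4 at room temperature. For Hspa1b the adjusted p reached 0.0902, and the call was lost without WT at room temperature replicate 2, 3 or 4, KO at room temperature replicate 2 or 3, WT at 29 °C replicate 2 or 4, or KO at 29 °C replicate 1 or 2, and at -3.31 (adjusted p = 0.113) without KO replicates 2 and 4 at room temperature. Hspb1, a small heat-shock protein, measured 88.5, 72.0, 80.3 and 69.5 CPM in WT at room temperature and 191, 267, 196 and 353 CPM in WT at 29 °C. KO Hspb1 stood at 78.8, 86.9, 77.3 and 101 CPM at room temperature and 113, 103 and 119 CPM at 29 °C. WT at 29 °C was again the highest group with no overlap, and the Hspb1 interaction was -1.32 ± 0.24 (adjusted p = 0.00105). Hspe1 measured 303, 299.9, 323 and 269 CPM in WT at room temperature and 100.1, 113, 119 and 141 CPM in WT at 29 °C. KO Hspe1 stood at 343, 228, 258 and 257 CPM at room temperature and 300.1, 289 and 215 CPM at 29 °C. WT at 29 °C was the lowest group for Hspe1, and its interaction was 1.32 ± 0.20 (adjusted p = 2.36e-04); Hspd1 had 1.07 ± 0.21 (adjusted p = 0.00176). The count of heat-shock chaperones called lower was 5 without WT at room temperature replicate 3 or 4 or WT at 29 °C replicate 4, 4 without KO at room temperature replicate 2 or KO at 29 °C replicate 1 or 2, and 3 without KO replicates 2 and 4 at room temperature.

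The promoters of these genes are shown because the heat-shock element, the site of HSF1, was found in genes of both directions. The letters searched were GAANNTTC, in capitals: at -104 in Hspa1a (chr17:34972157-34972406, minus strand) and Hspa1b (chr17:34959239-34959488, minus strand), at -117 and -97 in Hspb1 (chr5:135887669-135887918, plus strand) and at -84 in Hspe1 (chr1:55087898-55088147, plus strand), all GRCm38.p6 from RefSeq.

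Hspa1a: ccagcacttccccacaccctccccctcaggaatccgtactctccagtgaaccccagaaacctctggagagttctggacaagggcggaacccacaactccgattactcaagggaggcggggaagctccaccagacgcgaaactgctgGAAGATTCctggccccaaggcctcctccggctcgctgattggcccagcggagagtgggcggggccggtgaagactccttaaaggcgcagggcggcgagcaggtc
Hspa1b: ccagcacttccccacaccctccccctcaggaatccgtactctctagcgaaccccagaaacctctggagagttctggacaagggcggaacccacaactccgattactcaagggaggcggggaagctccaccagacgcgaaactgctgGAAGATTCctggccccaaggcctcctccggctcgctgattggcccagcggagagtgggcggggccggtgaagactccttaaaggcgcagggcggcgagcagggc
Hspb1: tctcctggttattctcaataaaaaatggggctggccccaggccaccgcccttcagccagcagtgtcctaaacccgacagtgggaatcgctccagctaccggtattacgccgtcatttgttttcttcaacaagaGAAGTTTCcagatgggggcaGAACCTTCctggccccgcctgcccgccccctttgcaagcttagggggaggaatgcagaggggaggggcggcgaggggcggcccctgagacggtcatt
Hspe1: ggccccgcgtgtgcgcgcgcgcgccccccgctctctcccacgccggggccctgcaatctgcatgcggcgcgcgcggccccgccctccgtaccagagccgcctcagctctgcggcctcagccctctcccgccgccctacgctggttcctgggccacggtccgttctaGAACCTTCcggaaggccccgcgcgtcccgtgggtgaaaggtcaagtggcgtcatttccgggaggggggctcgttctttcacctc

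The Hspa1a and Hspa1b windows were identical at 247 of 250 bases, and the Hspe1 window overlaps that of Hspd1, which lies head to head with it. The element was in 6 of 17 heat-shock promoters (35.3%) and in 6.30% of promoters of genes tested; it was in 5.90% of promoters of blunted rises and 5.81% of blunted falls.

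Vascular genes showed a blunted rise. Of 16 endothelial markers 12 (75%) were called, all lower (median interaction -1.01), against 12.3% of all genes called lower. The lower count was 12 without the libraries with muscle transcripts and 10 without KO replicates 2 and 4 at room temperature. The median housing effect of the list was 1.43 in WT and 0.42 in KO, and the summed level was 2344 to 2792 CPM in WT at 29 °C against 910 to 1407 CPM in KO at 29 °C. Egfl7 (chromosome 2 at 26580014 to 26593120), a protein secreted by endothelium, measured 30.6, 30.0, 35.8 and 44.2 CPM in WT at room temperature and 180.4, 142, 161 and 158 CPM in WT at 29 °C. KO Egfl7 stood at 23.0, 22.7, 30.7 and 29.0 CPM at room temperature and 50.9, 46.1 and 58.0 CPM at 29 °C. WT at 29 °C stood far above KO at 29 °C, which lay just above the room temperature groups. The Egfl7 interaction was -1.22 ± 0.20 (adjusted p = 3.87e-04), and Erg, an endothelial transcription factor, had -1.36 ± 0.22 (adjusted p = 3.32e-04). In bulk tissue fewer cells of a type and less RNA per cell cannot be told apart.

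Of 19 angiogenic ligands and receptors 9 were called lower and 2 higher (47.4% and 10.5%, against 12.3% and 16.0% of all genes). Their median was -0.82, with 5 lower without KO at 29 °C replicate 1 or without KO replicates 2 and 4 at room temperature. Angpt2, a ligand of the TIE2 receptor, measured 1.08, 0.988, 1.01 and 0.736 CPM in WT at room temperature and 3.47, 4.58, 3.49 and 4.72 CPM in WT at 29 °C. KO Angpt2 stood at 0.819, 1.01, 1.57 and 1.10 CPM at room temperature and 1.52, 1.28 and 1.39 CPM at 29 °C. WT at 29 °C lay above all other libraries, and the Angpt2 interaction was -1.78 ± 0.32 (adjusted p = 8.78e-04). Tek, which encodes TIE2, had -1.10 ± 0.18 (adjusted p = 3.45e-04) and Tie1 -1.13 ± 0.24 (adjusted p = 0.00299). Vegfa, the growth factor to which endothelial VEGF receptors respond, chosen after its values were seen, was 1 of the 2 higher, at 0.86 ± 0.19 (adjusted p = 0.00388).

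The 4 largest rises amplified in KO were in Slpi, Gdf15, Jchain and Trim66. Slpi, a secreted inhibitor of leukocyte proteases, measured 0.165, 0, 0.0420 and 0.0866 CPM in WT at room temperature and 0.347, 0.233, 0.657 and 0.363 CPM in WT at 29 °C. KO Slpi stood at 0.0862, 0.0422, 0.161 and 0 CPM at room temperature and 6.66, 8.15 and 21.4 CPM at 29 °C. The 3 KO libraries at 29 °C were above all others, where Slpi was under 1 CPM. Its interaction was 4.92 ± 1.32 (adjusted p = 0.0125), and 4.19 (adjusted p = 0.0984) without WT at room temperature replicate 1. Gdf15, a stress-induced hormone that acts on the brainstem, measured 0.290, 0.0429, 0.168 and 0.173 CPM in WT at room temperature and 2.74, 1.53, 1.56 and 0.848 CPM in WT at 29 °C. KO Gdf15 stood at 0, 0.169, 0.242 and 0.163 CPM at room temperature and 34.4, 8.38 and 13.5 CPM at 29 °C. Both 29 °C groups exceeded the room temperature groups, KO by more, and the Gdf15 interaction was 3.70 ± 1.13 (adjusted p = 0.0262). The call was lost without WT at room temperature replicate 1, 3 or 4 (adjusted p up to 0.0951) and at 3.92 (adjusted p = 0.0760) without KO replicates 2 and 4 there. Trim66, a chromatin-associated protein, had 2.60 ± 0.54 (adjusted p = 0.00233).

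Of 18 lymphocyte markers tested 8 (44.4%) had a called interaction, all higher and all amplified, against 16.0% of all genes called higher. The count was 3 without KO at 29 °C replicate 1. The markers had a median interaction of 1.50 and housing medians of 1.12 in WT and 2.56 in KO. Their summed level was 4.94 to 5.89 CPM in WT and 4.98 to 10.97 CPM in KO at room temperature, 13.2 to 18.5 CPM in WT at 29 °C and 44.1 to 61.8 CPM in KO at 29 °C. The housing effect was called higher for 10 of the 18 in WT and for 18 in KO, against 5421 and 3664 of all 15083 genes. The count of called interactions was 5 or fewer without WT at room temperature replicate 1, 2, 3 or 4, KO at room temperature replicate 1, 3 or 4, WT at 29 °C replicate 3, or KO at 29 °C replicate 1 or 3. Cd3e, a chain of the T cell receptor complex, measured 0.331, 0.0859, 0.336 and 0.130 CPM in WT at room temperature and 0.243, 0.266, 0.242 and 0.242 CPM in WT at 29 °C. KO Cd3e stood at 0.216, 0.632, 0.121 and 0.366 CPM at room temperature and 2.83, 1.24 and 2.36 CPM at 29 °C. KO at 29 °C lay above all other libraries, and the Cd3e interaction was 2.52 ± 0.70 (adjusted p = 0.0137). Jchain, the joining chain of secreted antibodies, had 2.74 ± 0.86 (adjusted p = 0.0320). The Jchain call was lost without WT at room temperature replicate 2 or 3 or KO at room temperature replicate 1, 3 or 4. It was also lost without replicate 3 of WT or of KO at 29 °C. Jchain had 2.15 (adjusted p = 0.120) without the libraries with muscle transcripts and 2.60 (adjusted p = 0.0918) with the replicate number as a block. Of 18 macrophage markers 1 was called higher and 2 lower (5.56% and 11.1%, below the 16.0% and 12.3% of all genes). These were Cd68 at 1.15 ± 0.33 (adjusted p = 0.0155), Cd163 at -1.31 ± 0.37 (adjusted p = 0.0160) and Mertk at -0.85 ± 0.28 (adjusted p = 0.0324). Cd68 had 1.17 (adjusted p = 0.0624) without the libraries with muscle transcripts, Cd163 was lost without KO at 29 °C replicate 2 (adjusted p = 0.0503), at -1.30 (adjusted p = 0.0861) without the libraries with muscle transcripts and at -0.89 (adjusted p = 0.116) without KO replicates 2 and 4 at room temperature, and Mertk was lost without WT at room temperature replicate 2 or 3, KO at room temperature replicate 4 or KO at 29 °C replicate 1 or 2 (adjusted p up to 0.0948). The part of these cell types in the other results was not tested.

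Falls amplified in KO included genes of cholesterol synthesis. Of 22 genes 10 (45.5%) were called, all lower and 8 of them amplified, against 12.3% of all genes called lower. The list had a median interaction of -0.67 and median housing effects of -0.86 in WT and -1.49 in KO. Cyp51, the lanosterol demethylase, measured 41.8, 32.7, 28.3 and 38.4 CPM in WT at room temperature and 32.1, 33.2, 29.2 and 34.5 CPM in WT at 29 °C. KO Cyp51 stood at 52.1, 90.4, 40.8 and 65.9 CPM at room temperature and 21.2, 16.9 and 19.3 CPM at 29 °C. Of the KO libraries at room temperature 3 were above all others and replicate 3 lay within the WT range there, and KO at 29 °C was the lowest with no overlap. The Cyp51 interaction was -1.57 ± 0.29 (adjusted p = 0.00112), with -0.13 in WT and -1.70 in KO; Mvd had -2.02 ± 0.51 (adjusted p = 0.00992). The count of cholesterol synthesis genes called lower was 6 without KO at 29 °C replicate 2, 3 without the libraries with muscle transcripts and 6 without KO replicates 2 and 4 at room temperature, and Mvd had -1.89 (adjusted p = 0.112) without the libraries with muscle transcripts.

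**Figure D5:**
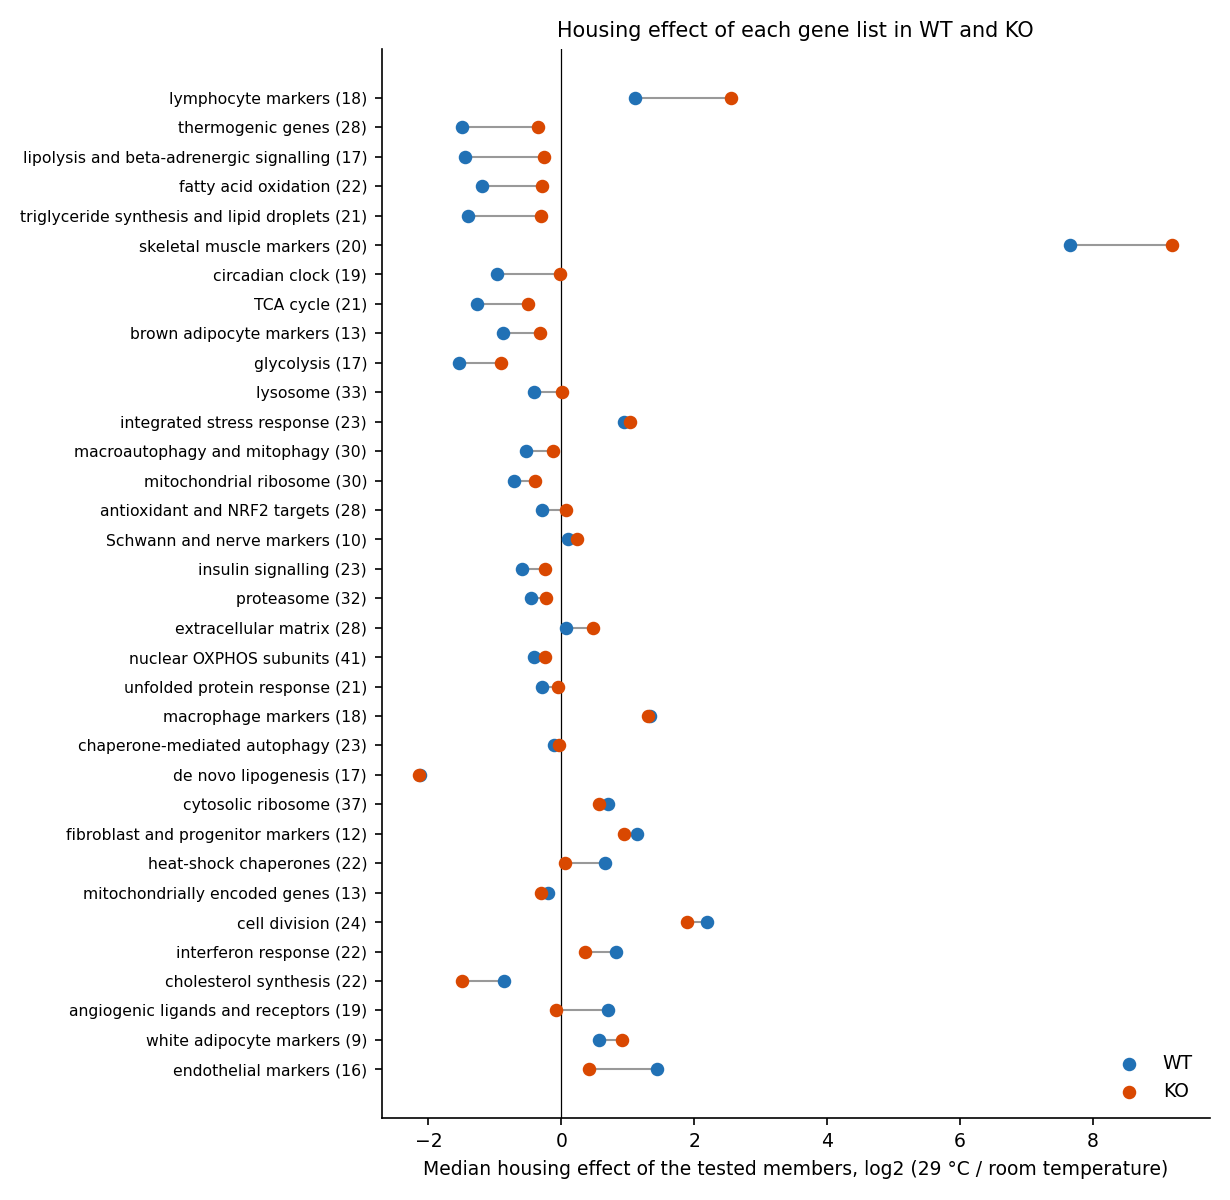
Median housing effect (29 °C against room temperature, log2) of the tested members of each gene list in WT and in KO. Thermogenic genes lie at -1.495 in WT and -0.35 in KO, endothelial markers at 1.43 and 0.42, lymphocyte markers at 1.12 and 2.56, and de novo lipogenesis at -2.13 and -2.14.

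Btc was among the 4 largest interactions of genes crossed upward in KO, and E2f2 among the 4 largest of those crossed downward. Btc (chromosome 5 at 91357261 to 91402994), betacellulin, a ligand of the EGF receptor, measured 8.69, 10.01, 8.98 and 8.23 CPM in WT at room temperature and 3.64, 3.25, 3.80 and 2.14 CPM in WT at 29 °C. KO Btc stood at 1.85, 1.73, 1.97 and 2.52 CPM at room temperature and 10.9, 8.49 and 9.12 CPM at 29 °C. WT at room temperature and KO at 29 °C overlapped at the high level, and the other groups were low with no overlap with them. Btc fell by 1.48 in WT and rose by 2.23 in KO, an interaction of 3.71 ± 0.25 (adjusted p = 5.76e-07), 13.1-fold. E2f2, a cell cycle transcription factor, measured 8.60, 5.15, 8.06 and 8.88 CPM in WT at room temperature and 29.8, 28.2, 27.97 and 21.1 CPM in WT at 29 °C. KO E2f2 stood at 22.3, 31.3, 20.5 and 26.7 CPM at room temperature and 5.54, 7.44 and 6.86 CPM at 29 °C. E2f2 mirrored Btc, with WT at room temperature and KO at 29 °C at the low level, and its interaction was -3.74 ± 0.26 (adjusted p = 8.15e-07).

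Gem, a small GTPase that inhibits calcium channels, measured 9.68, 12.5, 7.01 and 9.18 CPM in WT at room temperature and 3.99, 3.85, 6.19 and 3.31 CPM in WT at 29 °C. KO Gem stood at 2.20, 0.717, 1.69 and 0.853 CPM at room temperature and 7.87, 8.42 and 8.42 CPM at 29 °C. Gem was lowest in KO at room temperature with no overlap, and its interaction was 3.73 ± 0.41 (adjusted p = 2.54e-05). Dusp10, a phosphatase of stress-activated kinases, had 2.84 ± 0.49 (adjusted p = 0.00116), and Sema4g, a semaphorin, had -2.66 ± 0.41 (adjusted p = 2.43e-04) in the other direction.

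Read along the genotype axis, 9 genes had called KO effects of the same sign at both temperatures and 15 had called effects of opposite sign. All 15 had a called interaction, among them Arntl, Btc, Cenpo, E2f2, Fbxo21, Gem, Gm36691, Kdm6b, Lins1, Nr1d2, Pde4d, Plekhf1, Ppp1r3g and Tob2, of which those outside the rule for named genes were listed after their values were seen. The KO effect was -2.15 at room temperature and 1.56 at 29 °C for Btc, 1.71 at room temperature and -2.02 at 29 °C for E2f2 and -0.89 at room temperature and 1.33 at 29 °C for Pde4d. Tob2, an antiproliferative protein, measured 318, 414, 289.7 and 380.1 CPM in WT at room temperature and 128, 134, 143 and 119 CPM in WT at 29 °C. KO Tob2 stood at 203, 199, 192 and 127 CPM at room temperature and 300.2, 329 and 256 CPM at 29 °C. WT fell with warm housing and KO rose, and the KO effect on Tob2 was -0.96 at room temperature and 1.17 at 29 °C. Lins1 showed the smallest effects of the 15, 0.50 at room temperature and -0.32 at 29 °C.

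Cell division genes responded to housing with no called difference between genotypes: of 24 tested, 21 were called higher at 29 °C in WT and 23 in KO. Over all 15083 genes 5421 were called higher at 29 °C in WT and 3664 in KO. In the interaction none of the 24 was called by edgeR, DESeq2 or limma-voom, against 28.3% of all genes called by edgeR, and 1 had an unadjusted p under 0.05. The list had median housing effects of 2.19 in WT and 1.89 in KO and a median interaction of -0.32. Cdc20, an activator of the anaphase-promoting complex, had an interaction of -0.96, 95% confidence interval -1.98 to 0.06, and Plk1, a mitotic kinase, -0.81, 95% confidence interval -1.77 to 0.16. These intervals include differences of 2-fold, so the genotypes are not shown to respond alike. Of 20 skeletal muscle markers none was called by edgeR or limma-voom, none reached an unadjusted p of 0.05, and 1 was called higher by DESeq2; their summed level was 43.4 to 2391 CPM in WT and 77.3 to 2765 CPM in KO at 29 °C.

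Of 22 interferon response genes 2 were called higher and 1 lower (9.09% and 4.55%, below the 16.0% and 12.3% of all genes). Their median of -0.67 changed sign across settings (-1.22 to 0.35). Of these calls Gbp2 was lost in 11 and Stat2 in 9 of the 15 fits that left out a library, with adjusted p up to 0.135. Fgf21, a hormone that brown fat can secrete, had an interaction of -0.91 ± 1.35 (adjusted p = 0.657), with levels under 2 CPM in every library. Erythroid markers had no call among 6 tested by edgeR or limma-voom, 2 with an unadjusted p under 0.05 and 1 lower by DESeq2; their summed level was 3335 to 7264 CPM in WT at 29 °C and 1610 to 3009 CPM in KO at 29 °C. Fibroblast and progenitor markers had 2 of 12 called lower (16.7%, near the 12.3% of all genes). They summed to 608 to 858 CPM in WT and 609 to 742 CPM in KO at 29 °C.

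Matrix, insulin and nerve genes were called in smaller numbers. Of 28 extracellular matrix genes 8 were called higher and 3 lower (28.6% and 10.7%, against 16.0% and 12.3% of all genes). The higher count was 5 without KO at room temperature replicate 3 or KO at 29 °C replicate 2. It was 2 without the libraries with muscle transcripts. The lower count was 0 to 4 over the fits that left out a library. Col6a2, a chain of collagen VI, was crossed at 1.07 ± 0.14 (adjusted p = 7.22e-05), and Mmp2, a gelatinase, was amplified at 0.86 ± 0.21 (adjusted p = 0.00695), with 0.87 (adjusted p = 0.0515) without the libraries with muscle transcripts. Of 23 insulin signalling genes 5 were called higher and 2 lower (21.7% and 8.70%, near the 16.0% and 12.3% of all genes), with 3 higher without KO at room temperature replicate 3 or KO at 29 °C replicate 2; Grb10, an inhibitor of the insulin receptor, was lower at -1.06 ± 0.17 (adjusted p = 3.86e-04). Of 10 Schwann and nerve markers 3 (30.0%) were called, all higher, against 16.0% of all genes. Their median interaction was 0.33, and it was -0.27 without the libraries with muscle transcripts, with 2 called higher. S100b was crossed at 1.07 ± 0.22 (adjusted p = 0.00199), and Mbp, a myelin protein, was blunted at 0.81 ± 0.18 (adjusted p = 0.00430). Mbp had 0.60 (adjusted p = 0.0819) without the libraries with muscle transcripts. The summed level of all 14 nerve markers with counts was 118 to 187 CPM in WT and 206 to 231 CPM in KO at 29 °C. Of 9 white adipocyte markers 1 was called higher and 1 lower (11.1% each). Of 13 brown adipocyte markers 4 were called higher and 1 lower (30.8% and 7.69%, against 16.0% and 12.3% of all genes). Of 2 mesothelial markers none was called by edgeR, DESeq2 or limma-voom, and none had an unadjusted p under 0.05.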

How the data were processed

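The submitters' processing notes name STAR 2.7.10a, the mm10 build, RSEM 1.2.28 and DESeq2 1.3.40 for reads of 150 bp from a BGIseq500. The authors deposited RSEM expected counts for 24030 symbols in 15 libraries; 7.26% of the values were not whole, and all were rounded. Of the symbols 24 had become dates; they stayed in the tests (6 called) and are not named. Total estimated counts per library were 23977448 to 38800967, and a low total limits the genes of a few counts most.

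Genes passing filterByExpr (minimum count 10) were scaled by TMM and fitted with 4 group means and 11 residual degrees of freedom in edgeR 4.0.16, quasi-likelihood with the robust option, under R 4.3.3. The interaction and both housing and genotype effects came from this fit, which was tested on simulated data. Genes named are Park7, 16 fixed genes, the 4 largest interactions of each of 6 classes with a mean of at least 1 CPM (predicted genes left out) and, from each of 36 lists, the 3 members or fewer of smallest interaction p, 10 of them marker lists; some genes that the rule names are not reported here. Members and lists were chosen with earlier results of these data known. Alternatives were RLE factors, mitochondrially encoded genes left out, other filters, a replicate block, DESeq2 1.42.0, limma-voom (limma 3.58.1), other thresholds and sorting, and leaving out each library; leaving out 3 or 2 doubted libraries and thinning were added after seeing the data. Positions came from GENCODE M21 (80.7% of symbols matched), and promoters from RefSeq (102 of 134 named genes matched), searched in 250 bases for 6 motifs on both strands: CACGTG, TTATGNAA, TGACGTCA, GAANNTTC, TGATGNAAT and TGACNNNGC.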

Additional observations from a re-analysis of the deposited data

Results flagged for a closer look

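The 4 counts of the interaction are themselves differences between genotypes in the same housing contrast, each gene tested by the interaction term: 4272 genes called, of which 3561 were blunted, 446 amplified and 216 crossed.

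Single libraries stood apart from the rest of their group by Dixon's test in 9 cases. For the genes with the largest interactions and the fixed genes, 36 in all, 108 groups of 4 libraries were checked, and chance gives such a gap in about 1 group in 20. The share of skeletal muscle counts was 0.239% in WT at 29 °C replicate 2, against 0.00434% to 0.00757% in the other libraries of that group. Mfsd2a stood at 36.0 CPM in WT at room temperature replicate 2 (others 5.21 to 10.4) and at 5.82 CPM in KO at room temperature replicate 1 (others 0.122 to 0.759). WT at 29 °C replicate 1 was high for Dbp at 3.68 CPM (others 1.73 to 1.99), for Aldoc at 4.47 CPM (others 2.70 to 2.94) and for Trim66 at 1.98 CPM (others 0.761 to 0.969). Irs2 reached 9.68 CPM in WT at 29 °C replicate 3 (others 2.29 to 3.29). KO at room temperature replicate 2 was high for Osgin1 at 7.97 CPM (others 1.67 to 2.72) and for Jchain at 2.66 CPM (others 0.443 to 0.647). The interactions of Dbp, Aldoc, Trim66 and Irs2 stayed called without any single library.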

How the results depend on the processing

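No named gene with a called interaction changed sign in any alternative run. The balance of directions among called, blunted, amplified and crossed genes turned in at least 1. The medians of de novo lipogenesis and of the interferon response also changed sign in at least 1. So did those of the skeletal muscle, Schwann and nerve, fibroblast and progenitor, and mesothelial markers. With the replicate number as a block, 4045 genes were called, 3869 of them among the 4272, and 5 heat-shock chaperones were called lower; the calls lost included Mfsd2a, Gbp2, Hspa1b and Jchain, Hspa1b at -3.56 (adjusted p = 0.0937) and Jchain at 2.60 (adjusted p = 0.0918 by edgeR). Whether the numbers pair the libraries was not settled. Of 21 same-number pairs 4 correlated over 0.1 (r -0.388 to 0.450), and 6 of 15 libraries correlated best with their own number. The highest r, 0.658, joined libraries of different number that both held muscle transcripts, WT replicate 2 and KO replicate 3 in warm housing. These correlations therefore cannot exclude a block. At an adjusted p under 0.01 the counts were 2304 called, 2048 blunted, 157 amplified and 71 crossed. Sorted by sign alone, without asking that both housing effects be called, 1309 genes were crossed and 222 amplified. Without the 3 libraries with muscle transcripts 275 were amplified and 116 crossed, and without KO replicates 2 and 4 at room temperature 115 were crossed; both settings have fewer libraries. Leaving out each library in turn gave 3277 to 4563 called, 2726 to 3831 blunted, 310 to 503 amplified and 147 to 242 crossed. DESeq2 called 4545 genes and limma-voom 4266. With mitochondrially encoded genes left out 2098 were higher and 2135 lower. Of 114 named genes with a called interaction, 77 stayed called in every setting and 37 lost the call in at least 1; of 20 not called, 10 gained it in at least 1. The median interaction over all genes stayed between -0.06 and 0.05. Genes at a few counts per library, such as Slpi and Gdf15, are limited by depth.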
